A study of Danio rerio with 6 samples.

Results

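The genes that encode the subunits of the nuclear RNA polymerases and of the Mediator complex were followed in whole zebrafish embryos in which wbp11, a gene for a nuclear protein that associates with the spliceosome, was targeted with a morpholino. Members were all rows of the count table whose symbol starts with polr1, polr2, polr3 or med and a digit. These were 57 of 25432 gene records, of which 5 belong to polymerase I, 13 to polymerase II, 11 to polymerase III and 28 to Mediator. All 57 passed the filter on low counts, and polr3g passed it only through the wbp11-MO libraries. The 2 groups were control-MO, embryos injected with a control morpholino, and wbp11-MO, embryos labelled as a knock down of wbp11. Each had 3 libraries of poly(A)-selected RNA, all from embryos at 72 hours post fertilization, and each library came from a pool of 50 embryos labelled as a biological replicate. The sources used here state no strain, morpholino sequence or dose, and a pool does not show differences between embryos.

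RNA polymerase I transcribes the large ribosomal RNA precursor, polymerase II messenger RNAs and most spliceosomal small nuclear RNAs, and polymerase III transfer RNAs, 5S ribosomal RNA and U6. Each is a multi-subunit enzyme whose largest and second largest subunits form the catalytic cleft, and several small subunits are shared between the enzymes. Mediator is a large complex that connects transcription factors at enhancers to polymerase II at promoters, and it is divided into head, middle and tail modules, a backbone subunit and a detachable kinase module. In people, changes in POLR1A, POLR1B, POLR1C and POLR1D cause craniofacial disorders, and zebrafish mutants in polr3b and med12 have defects of the digestive organs and of cartilage, respectively.

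Counts per library summed to between 11219706 and 13669995, and the first principal component carried 83.9% of the variance and separated the groups. Of 20012 genes tested, 61.7% differed between the groups, 30.5% higher and 31.2% lower in wbp11-MO, at an adjusted p under 0.05 in the quasi-likelihood test of edgeR. The median log2 fold change over all tested genes was 0 with the TMM scaling used and -0.07 without TMM factors. A change of a member is thus a change relative to the centre that the scaling gives. The targeted gene was present as 2 records, on chromosome 3 and on an unplaced scaffold, and neither was lower in wbp11-MO. Their log2 fold changes were 0.72 ± 0.12 and 0.30 ± 0.16 (SE). The chromosome 3 record was called higher in wbp11-MO and the scaffold record was not called (edgeR fit, adjusted p = 4.7e-06 and 0.10). A morpholino that blocks translation need not lower its transcript and the labels do not give its mode, so the transcript does not check the labels. Every direction given is that of the wbp11-MO label.

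The markers of other cell states moved strongly with the groups. Their calls are to be read against the 30.5% of all tested genes higher and 31.2% lower. All 21 records of a proliferating cell list were called higher in wbp11-MO, and their summed level was between 1806 and 1856 CPM in the control-MO libraries and between 2994 and 3079.8 CPM in the others. All 15 photoreceptor and all 15 exocrine pancreas markers were lower, as were 14 of 15 neuron markers. The other neuron marker, elavl3, was higher by a log2 fold change of 0.24. The summed neuron level was between 3373 and 3387 CPM in control-MO and between 1581 and 1692 CPM in wbp11-MO. Photoreceptor markers summed to between 4645 and 5233 CPM in control-MO and to between 98.1 and 148 CPM in wbp11-MO. Pancreas markers summed to between 366 and 458 CPM against between 7.22 and 7.61 CPM, with 5 of the 15 at 0 in at least 1 library and 1, ctrl, at 0 in all of wbp11-MO. Several pancreas markers, among them ctrb1, cel.1, prss59.1, prss59.2, ctrl, ela3l, amy2a and cpa1, passed the filter on low counts only through control-MO. The lower calls of such markers are descriptions with no test. In whole-embryo RNA, more cells of a type and more RNA per cell cannot be told apart, and the part of these shifts in the member results was not tested.

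The transcripts of the transcription machinery were higher in wbp11-MO in most cases and by modest amounts. Of the 57 members, 41 rose, 1 fell and 15 were not called, against the background of 30.5% of all tested genes higher and 31.2% lower. The median log2 fold change was 0.44, and it was also 0.44 over the 56 members other than polr3g, of which 40 rose. A called rise of at least 2-fold was seen in 3 of the 57 members, a share near the 5.90% of all tested genes. These were polr2eb, med16 and polr3g, of which polr3g passed the filter only through wbp11-MO, so its call is not a test. The groups did not overlap in 39 members that were higher, polr3g among them, and in 2 that were lower. Of all tested genes, 32.3% and 33.1% did not overlap in these directions, and 65.4% in either direction. Summed over its subunits, polymerase I stood at 96.6, 98.1 and 90.9 CPM in the control-MO libraries and at 138, 148 and 138 CPM in wbp11-MO. Polymerase II stood at 494, 485 and 492 CPM against 725, 749.5 and 732 CPM. Polymerase III stood at 167, 162 and 168 CPM against 229.8, 218 and 236 CPM, and Mediator at 830.0, 808 and 831 CPM against 1149, 1118 and 1155 CPM. In every complex the lowest wbp11-MO library was above the highest control-MO library, and the ratios of the group means lay between 1.37 for polymerase III and 1.5 for polymerase II. A sum of CPM is not corrected for length, and genes with many reads, such as polr2a, med13a and med13b, weigh most in it. The sums therefore do not give the change of a typical subunit.

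**Figure D1:**
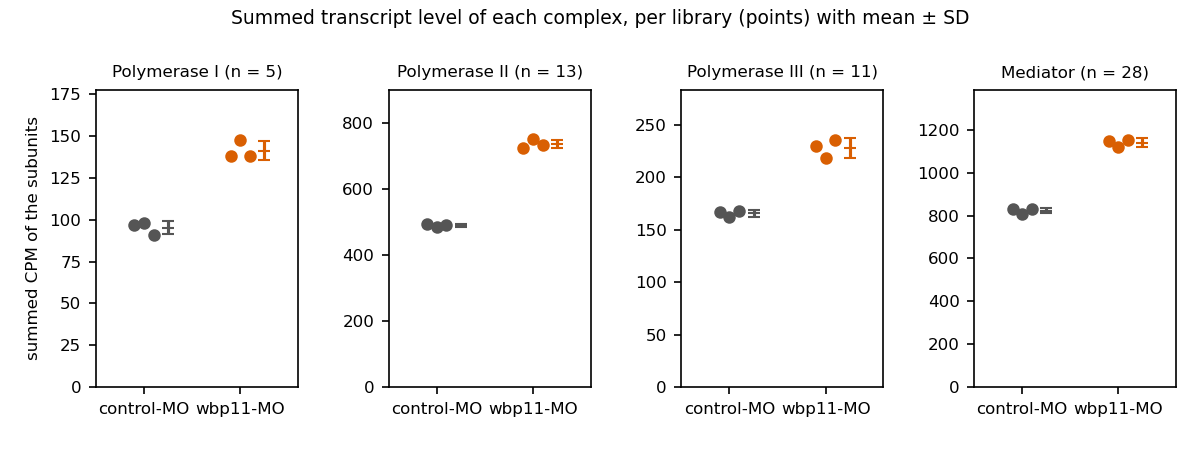
Summed CPM of the subunit genes of each complex (vertical axis, from 0) in each control-MO and wbp11-MO library, with points for libraries and bars for the mean ± SD (n = 3). The wbp11-MO libraries lie above all control-MO libraries in each of the 4 complexes, with ratios of the means between 1.37 and 1.5.

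Only 5 subunits of polymerase I carry polr1 symbols in the table, and all 5 rose, against 30.5% of all tested genes called higher. Their log2 fold changes lay between 0.40 and 0.70, with a median of 0.52. The largest subunit gene, polr1a (chromosome 14, 16151368 to 16212896, GRCz11), was at 33.8, 35 and 36.4 CPM in control-MO and at 57.7, 58.1 and 55.2 CPM in wbp11-MO. The groups were far apart relative to their spread, with a log2 fold change of 0.70 ± 0.07 (SE, edgeR fit, adjusted p = 1.2e-09). The second largest subunit gene, polr1b, varied more, with 18.4, 15.9 and 15.9 CPM against 24.2, 28.5 and 20.8 CPM. The lowest wbp11-MO library was still above the highest control, and the log2 fold change was 0.55 ± 0.12 (SE, edgeR fit, adjusted p = 1.8e-04). The gene polr1e, for a subunit that acts in initiation, was at 18.1, 20.5 and 18.2 CPM against 24.4, 27.5 and 29.5 CPM, and its log2 fold change was 0.52 ± 0.11 (SE). The genes polr1c and polr1d encode the pair of assembly subunits that polymerase I shares with polymerase III. They had the smallest changes of the 5, with log2 fold changes of 0.44 ± 0.12 and 0.40 ± 0.14 (SE). The polr1d gene had the highest level per length of the 5, with 15.2 ± 1.88 FPKM in control-MO and 19.1 ± 0.64 FPKM in wbp11-MO (SD, n = 3). It was at 10.6, 10.6 and 8.6 CPM in control-MO and at 12.5, 13.6 and 13.1 CPM in wbp11-MO. Omitting control-MO replicate 3 or wbp11-MO replicate 2 ended its call, as did scaling without TMM factors (edgeR fit, adjusted p = 0.10, 0.060 and 0.054, range 0.016 to 0.10 over the alternatives).

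Polymerase II showed the same direction throughout, with 11 of 13 members higher and none lower, against 30.5% and 31.2% of all tested genes. The median log2 fold change was 0.51. The gene for the largest subunit, polr2a (chromosome 12, 22560067 to 22573297), whose protein carries the repeated carboxy-terminal domain, was the most counted member. It was at 169, 171 and 156 CPM in control-MO and at 234, 259 and 259 CPM in wbp11-MO, a log2 fold change of 0.60 ± 0.06 (SE, edgeR fit, adjusted p = 6.1e-11). The second largest subunit gene, polr2b (chromosome 14, 52377557 to 52408817), moved by nearly the same amount. It was at 87.1, 80.4 and 91.5 CPM against 138, 141 and 134 CPM, a log2 fold change of 0.67 ± 0.06 (SE, edgeR fit, adjusted p = 2.0e-11). On the other strand, igfbp7 and noa1 share 2162 and 199 bases with the polr2b record and had log2 fold changes of -0.46 and 0.44. Overlaps here and below are between genomic spans, introns included, and overlap between exons was not measured. The stalk genes polr2d and polr2gl encode the detachable Rpb4 and Rpb7 type subunits and had log2 fold changes of 0.66 ± 0.09 and 0.51 ± 0.07 (SE). By level per length polr2d and polr2l led the 57 members, at 42.2 ± 2.33 and 42.2 ± 3.21 FPKM in control-MO (SD, n = 3). For polr2d the libraries were at 26, 25.8 and 23.9 CPM against 42.8, 39.5 and 37.1 CPM, without overlap.

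Among the other polymerase II genes, polr2i encodes the Rpb9 type subunit, which acts in transcript cleavage and fidelity. It was at 15.8, 16.7 and 17.3 CPM in control-MO and at 28.3, 27.4 and 24 CPM in wbp11-MO, a log2 fold change of 0.68 ± 0.11 (SE, edgeR fit, adjusted p = 2.2e-06). The genes polr2c and polr2j, for the assembly pair that corresponds to polr1c and polr1d, had smaller log2 fold changes of 0.28 ± 0.10 and 0.38 ± 0.10 (SE). The groups overlapped for polr2c, and its call ended on omitting replicate 2 of either group or replicate 3 of wbp11-MO, and without TMM factors (edgeR fit, adjusted p between 0.058 and 0.14, range 0.00069 to 0.14 over the alternatives). The gene polr2m encodes Gdown1, a protein bound to a form of polymerase II that depends on Mediator. It rose by 0.63 ± 0.16 on the log2 scale (SE, edgeR fit, adjusted p = 0.0011).

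The 5 subunits shared by all 3 polymerases divided. The polr2eb gene (chromosome 22, 17606588 to 17611582) was at 34.7, 32.3 and 37.9 CPM in control-MO and at 75.3, 68.6 and 68.1 CPM in wbp11-MO. Every wbp11-MO library was above every control, and the log2 fold change of 1.01 ± 0.08 (SE, edgeR fit, adjusted p = 4.9e-13) was the largest among polymerase II members. The 4995-base genomic span of polr2eb lies within that of gpx4a on the other strand, which had a log2 fold change of -0.10. The length that polr2eb has in the table is 1215 bases, and how much of it gpx4a exons share was not measured. The sources used here state no strand setting, so reads from any shared exon cannot be assigned. A second polr2e record, annotated as polypeptide E a, had 0 counts in all libraries. The polr2l gene rose by a log2 fold change of 0.38 ± 0.10 and polr2f by 0.26 ± 0.11 (SE), and the groups overlapped for polr2f. The polr2f call ended on omitting replicate 1 or 2 of either group, with upper-quartile factors, without TMM factors and with DESeq2 (adjusted p between 0.064 and 0.14, range 0.0090 to 0.14 over the alternatives). The polr2h and polr2k genes were not called, with log2 fold changes of 0.12 ± 0.13 and 0.34 ± 0.24 (SE, edgeR fit, adjusted p = 0.44 and 0.23). With 3.71 ± 0.93 CPM in control-MO (SD, n = 3), polr2k was measured less precisely than its partners. The ratio of polr2eb to polr2h was 2.30, 2.61 and 2.74 in control-MO and 5.12, 4.33 and 4.74 in wbp11-MO.

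Polymerase III had 8 of 11 members higher and none lower, against 30.5% and 31.2% of all tested genes. The median log2 fold change was 0.46. Without polr3g, 7 of 10 members were higher and the median was 0.45. The catalytic pair polr3a and polr3b stood at 16.2, 19.3 and 17.3 CPM and at 31.7, 31.2 and 27.7 CPM in control-MO. In wbp11-MO they stood at 21.8, 24.2 and 25.8 CPM and at 44.4, 37 and 38.8 CPM, above all controls. Their log2 fold changes were 0.45 ± 0.11 and 0.41 ± 0.09 (SE, edgeR fit, adjusted p = 8.5e-04 and 2.2e-04). The polr3a record overlaps another record on the same strand by 3580 bases. Of the TFIIF-like pair, polr3e was at 47, 46.8 and 44.2 CPM against 68.5, 66.5 and 69.8 CPM, a log2 fold change of 0.57 ± 0.07 (SE, edgeR fit, adjusted p = 1.3e-08). Its partner polr3d, on an unplaced scaffold, had a fitted log2 difference of 0.15 ± 0.17 (SE, edgeR fit, adjusted p = 0.45) and overlapping groups. The cleavage subunit gene polr3k was not called either, with a log2 fold change of 0.33 ± 0.20 (SE). On omitting replicate 3 of control-MO or replicate 1 of wbp11-MO, polr3k was called higher (edgeR fit, adjusted p = 0.038 and 0.026, range 0.026 to 0.75 over the alternatives).

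The initiation trimer of polymerase III is built from the products of polr3c, polr3f and one of a set of alternative genes, polr3g, polr3gla and polr3glb. In mammals the POLR3G form is typical of stem cells and early embryos, and the POLR3GL form of most adult tissues. In these embryos the polr3gl genes carried nearly all of the signal, with polr3glb at 14.4 ± 1.00 and polr3gla at 3.27 ± 0.12 FPKM in control-MO against 0.0699 ± 0.0613 FPKM for polr3g (SD, n = 3). The polr3g gene (chromosome 5, 48666485 to 48675195) had 5, 5 and 0 counts in the control-MO libraries and 35, 15 and 27 counts in wbp11-MO. Since it passed the filter on low counts through wbp11-MO alone, its fitted log2 fold change of 2.92 ± 0.57 (SE) is a description with no test. The value rests on few reads, 10 over control-MO, and was 2.32 without control-MO replicate 3 and 3.39 without control-MO replicate 2. Even so, polr3g reached only 0.501 ± 0.18 FPKM in wbp11-MO, and lysmd3 on the other strand covers 2643 bases of its record. The polr3glb gene was at 18.3, 15.8 and 18.4 CPM against 21.6, 26.8 and 23.9 CPM, a log2 fold change of 0.46 ± 0.11 (SE, edgeR fit, adjusted p = 7.9e-04), and polr3gla had the same fitted log2 change, 0.46 ± 0.19. The polr3f gene was at 9.41, 6.65 and 7.51 CPM in control-MO and at 15.4, 13.6 and 13.9 CPM in wbp11-MO. Its groups were separate, with a log2 fold change of 0.86 ± 0.15 (SE, edgeR fit, adjusted p = 1.4e-05), while polr3c, overlapped over 4237 bases by itga10 on the other strand, had 0.47 ± 0.19 (SE, edgeR fit, adjusted p = 0.036). The calls of polr3c and polr3gla were each lost in 8 of 14 alternatives, among them DESeq2 (adjusted p = 0.060 and 0.058). Among the libraries left out, every one except wbp11-MO replicate 1 ended the polr3c call and every one except wbp11-MO replicate 2 the polr3gla call. Over the alternatives the adjusted p ran from 0.029 to 0.10 for polr3c and from 0.031 to 0.15 for polr3gla.

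**Figure D2:**
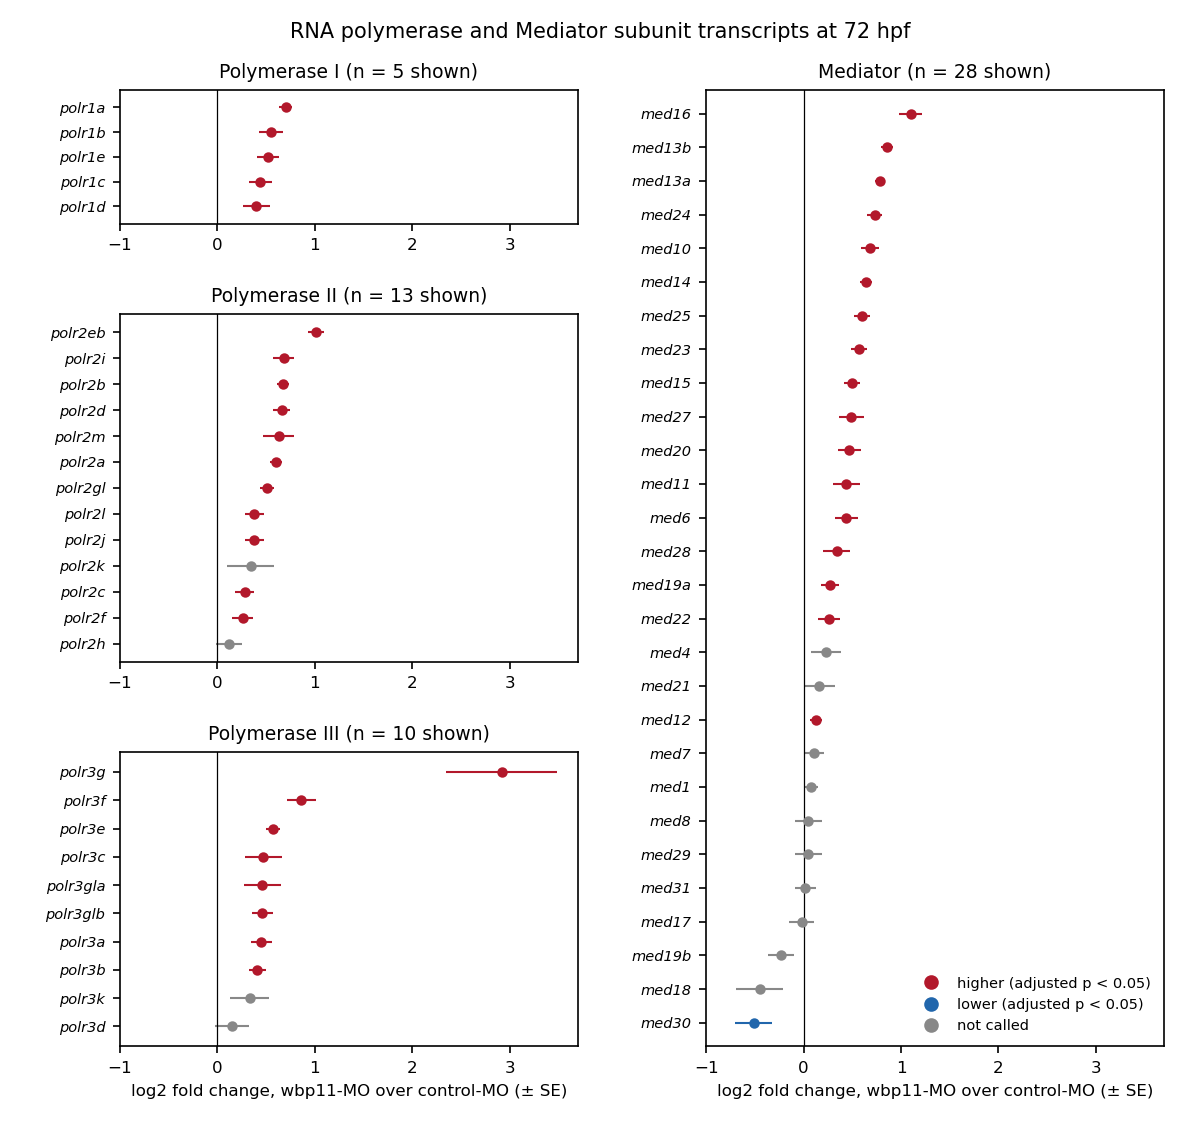
Log2 fold change of the members shown, wbp11-MO over control-MO (horizontal axis), with its SE from the edgeR fit, by complex and ordered by size. Red points were higher, the blue point lower and grey points not called at an adjusted p under 0.05. The polymerase members shown all lie to the right of 0, while Mediator members run from -0.51 for med30 to 1.10 for med16.

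Mediator was the most divided of the 4 complexes. Of its 28 members 17 rose, 1 fell and 10 were not called, against 30.5% of all tested genes higher and 31.2% lower. The median log2 fold change was 0.30, with a range from -0.51 to 1.10. The modules below follow textbook structure and were set up after the values had been seen. All 5 tail genes rose (med15, med16, med23, med24 and med25), as did the backbone gene med14 and the 3 kinase module genes. In the head 4 of 7 rose (med6, med11, med20 and med22), and in the middle 2 of 8 (med10 and med19a), or 25%, near the 30.5% of all tested genes called higher. Of med27, med28, med29 and med30, whose place between head and tail differs between descriptions, 2 rose, 1 fell and 1 was not called. These counts include the calls of med12, med19a, med22, med28 and med30, which were lost in some alternatives, as given below.

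The tail gene med16 (chromosome 11, 14104417 to 14143702) had the largest rise of the complex. It was at 15.2, 13.5 and 20.2 CPM in control-MO and at 39.4, 34 and 31.9 CPM in wbp11-MO, without overlap, and its log2 fold change was 1.10 ± 0.12 (SE, edgeR fit, adjusted p = 1.9e-09). The backbone gene med14, whose product holds head, middle and tail together, was at 70.5, 69.3 and 68.2 CPM against 108, 103 and 114 CPM. This is a log2 fold change of 0.64 ± 0.06 (SE, edgeR fit, adjusted p = 1.0e-10). Another record on the same strand shares 2425 bases with the med14 record and had a log2 fold change of -0.89. The remaining tail genes, med15, med23, med25 and med24, had log2 fold changes of 0.50, 0.57, 0.60 and 0.73, each with an SE of 0.08. The med24 gene was first studied in zebrafish through a mutant with defects of the enteric nervous system.

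In the kinase module the med13 paralogs and med12 moved by different amounts. The med13a gene (chromosome 10, 28029578 to 28118035), whose product links the module to the core, was at 106, 104 and 109 CPM in control-MO and at 179, 182 and 185 CPM in wbp11-MO. The med13b gene (chromosome 15, 20060643 to 20125331) was at 69, 71 and 65.7 CPM against 124, 126 and 122 CPM. Both were among the most precisely measured members, with log2 fold changes of 0.78 ± 0.05 and 0.86 ± 0.06 (SE, edgeR fit, adjusted p = 8.6e-14 and 7.3e-14). The med12 gene (chromosome 14, 23593989 to 23679139), for the subunit that activates the kinase through cyclin C, was at 104, 106 and 110.2 CPM against 114, 117 and 119.8 CPM. Its groups did not overlap, but the log2 fold change was 0.13 ± 0.06 (SE, edgeR fit, adjusted p = 0.045) and the call was lost in 11 of 14 alternatives. Among the libraries left out, only the omission of control-MO replicate 3 kept it, and the adjusted p ran from 0.038 to 0.38 over the alternatives. The ratio of med13a to med12 was 1.01, 0.98 and 0.985 in control-MO and 1.57, 1.55 and 1.54 in wbp11-MO, and that of med13b to med12 rose from 0.643 ± 0.041 to 1.06 ± 0.041 (SD, n = 3). The cyclin C gene ccnc and the kinase gene cdk8, which the symbol rule leaves out, had log2 fold changes of 0.56 ± 0.08 and 0.53 ± 0.07 (SE, edgeR fit, adjusted p = 1.2e-07 and 1.7e-07). The alternative kinase gene cdk19 stood at 2.69 ± 0.26 and 2.23 ± 0.52 CPM (SD, n = 3) and was not called.

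The Mediator genes that did not follow were mainly in the middle and head. The gene med30 (chromosome 19, 46372115 to 46411358), for a subunit found in animals and not in budding yeast, was the only called fall among the 57. It was at 8.24, 7.25 and 7.80 CPM in control-MO and at 5.83, 5.17 and 5.36 CPM in wbp11-MO, a log2 fold change of -0.51 ± 0.19 (SE, edgeR fit, adjusted p = 0.018). The groups were separate, but the call ended on omitting replicate 1 of control-MO or replicate 2 of wbp11-MO (edgeR fit, adjusted p = 0.067 and 0.053, range 0.0079 to 0.067 over the alternatives). The head gene med18 had a fitted log2 difference of -0.45 ± 0.24 (SE, edgeR fit, adjusted p = 0.097) and was called lower without wbp11-MO replicate 3 (edgeR fit, adjusted p = 0.041, range 0.041 to 0.37 over the alternatives). The middle gene med1, a contact of nuclear receptors, was at 55.6, 51.3 and 55.5 CPM against 55.3, 60.3 and 56.1 CPM. Its groups overlapped, and the log2 fold change was 0.08 ± 0.07 (SE, edgeR fit, adjusted p = 0.33). The middle gene med31 was the most abundant of the complex per length, at 25 ± 2.03 and 24 ± 0.45 FPKM (SD, n = 3). It was at 19.9, 20.5 and 23.3 CPM in control-MO and at 21, 22.1 and 21.4 CPM in wbp11-MO, with overlap and no call. Others without a call were med4, med7, med8, med17, med19b, med21 and med29, with log2 fold changes between -0.23 and 0.23.

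Among called middle and head genes, med10 had a log2 fold change of 0.68 ± 0.09 and med20 one of 0.47 ± 0.12 (SE). The med20 record shares 191 bases with usp49 on the same strand, which had a log2 fold change of 0.54. The med22 record shares 81 bases with rpl7a on the other strand, which had 0.16. The part of these overlaps in the med20 and med22 values was not tested. The paralogs med19a and med19b differed in sign, with log2 fold changes of 0.27 ± 0.09 and -0.23 ± 0.13 (SE), of which only that of med19a was called. The ratio of med19a to med19b was 1.96 ± 0.13 in control-MO and 2.75 ± 0.062 in wbp11-MO (SD, n = 3). The med19a call ended on omitting replicate 3 of either group or replicate 1 of wbp11-MO, and without TMM factors (edgeR fit, adjusted p between 0.055 and 0.10, range 0.0023 to 0.10 over the alternatives). The med22 and med28 calls, at log2 fold changes of 0.26 and 0.34, were lost in 11 and 8 of 14 alternatives. Leaving out any library ended the med22 call (edgeR fit, adjusted p between 0.071 and 0.11). Leaving out any library except control-MO replicate 3 ended the med28 call, and over the alternatives the adjusted p ran from 0.044 to 0.15 for med22 and from 0.011 to 0.14 for med28. How the authors' counting treated reads that fit both of a pair of paralogs is not given in the sources used here.

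**Figure D3:**
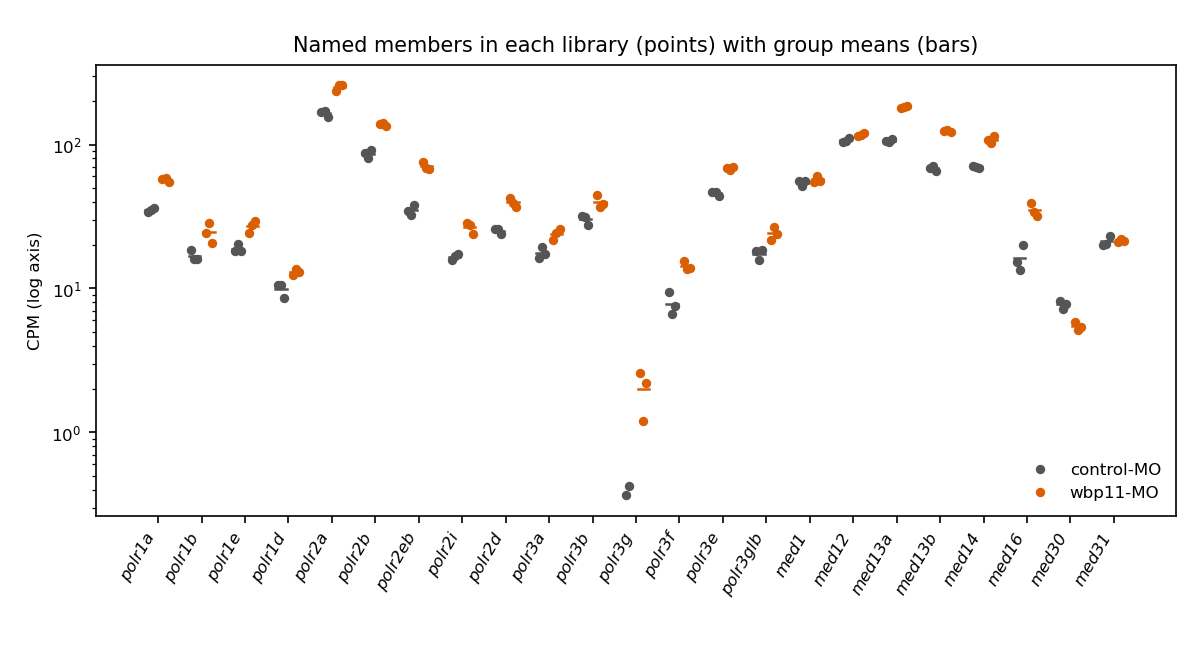
CPM (vertical log axis) of 23 members in each library, with control-MO in grey and wbp11-MO in orange, points for libraries and bars for the group means (n = 3). The polr3g value of 0 in control-MO replicate 3 cannot be drawn on a log axis, so that library and the group mean are left out. Only med1 and med31 show overlapping groups, and only med30 is lower in wbp11-MO. Many of the 23 were picked as the largest called changes, so their separation follows in part from the choice. Of all tested genes, 65.4% had groups that did not overlap.

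The 4 ratios between members (polr2eb to polr2h, med13a and med13b to med12, and med19a to med19b) were chosen after the values had been seen. Each was higher in all 3 wbp11-MO libraries than in all 3 control-MO libraries. By an exact two-sided permutation test each gave p = 0.10, and 0.10 after adjustment over the 4, which is the smallest that 3 libraries against 3 allow, so none could pass the threshold. The differences on the log2 scale were 0.89, 0.65, 0.73 and 0.49 in the order given. These values are descriptions, and as ratios within a library they do not depend on library scaling.

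The members also differed by the gene length in the table, which the symbol rule did not use. This length is the one that FPKM uses and is not the genomic span. For polr1a it is 7583 bases, while the span runs from 16151368 to 16212896. Of the 19 members with a length of at least 3000 bases in the table, 15 rose and 0 fell, with a median log2 fold change of 0.57. The 15 and the median include polr3g, whose call is not a test. Of 26 members between 1000 and 3000 bases, 20 rose and 0 fell, with a median of 0.46. Of 12 members below 1000 bases, 6 rose and med30 fell, with a median of 0.34. Among all tested genes the share called higher was 35.7%, 28.3% and 20.2% in the same classes, and the share called lower was 33%, 30.2% and 29.2%. Their median log2 fold changes in these classes were 0.03, -0.01 and -0.06. Spearman's rho between length and log2 fold change was 0.38 over the 57 members, 0.52 over the 28 Mediator genes and 0.23 over the 29 polymerase genes, against 0.04 over all 20012 tested genes. These are correlations across genes of the same 6 libraries, the genes are not independent replicates, and longer genes hold more reads. The long members med1 and med12 lay near 0, and the short polr2d was among the larger changes. The members lay on 22 chromosomes and 1 scaffold. Chromosome 14 held 7 of them, of which only med7 was not called. Among all 57 members 42 were called, and among all tested genes 61.7%. On chromosome 14 the calls of polr1d, med12 and med19a were lost in some alternatives.

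**Figure D4:**
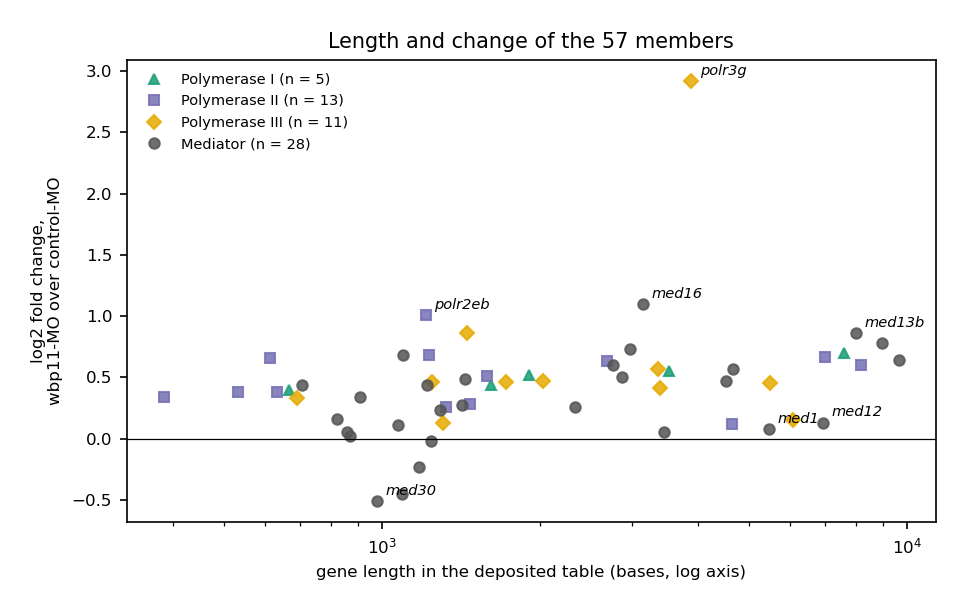
Gene length in the deposited table (horizontal log axis, bases) against log2 fold change, wbp11-MO over control-MO, for the 57 members, with a symbol for each complex. This length is the one that FPKM uses and is not the genomic span. The lower values lie mainly near 1000 bases, and polr3g, at 2.92, stands apart from the other members.

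Several subunits carry other symbols in the table. For polymerase I, cd3eap had a fitted log2 difference of 0.49 ± 0.13 (SE, edgeR fit, adjusted p = 0.0017) and twistnb 0.29 ± 0.13 (adjusted p = 0.051). The znrd1 gene had 4, 7 and 12 counts in control-MO, 0.588 ± 0.29 CPM (SD, n = 3), and 13, 19 and 10 counts in wbp11-MO. It passed the filter on low counts through wbp11-MO, so its fitted value of 0.89 ± 0.51 (SE) is a description with no test. The twistnb gene was called higher when wbp11-MO replicate 2 was left out (edgeR fit, adjusted p = 0.011, range 0.011 to 0.20 over the alternatives) and, at 0.050, with the filter of 1 count. The polymerase III stalk gene crcp had 0.16 ± 0.21 and the single-subunit mitochondrial polymerase gene polrmt one of 0.20 ± 0.12 (SE), and neither was called. Of 2 further Mediator records found by their annotation, med9 was not called (log2 fold change 0.03 ± 0.17, SE), and med1l had too few counts to be tested.

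The factors that work with the polymerases were then counted from lists of known partners, to be read against the 30.5% of all tested genes called higher and 31.2% called lower. Of 11 polymerase I factor records, 8 rose and 0 fell, with a median log2 fold change of 0.51. Here taf1b, a subunit of the promoter selectivity factor, rose from 8.85 ± 1.5 to 24.9 ± 2.46 CPM, and rrn3, the factor that makes polymerase I competent to start, from 23.8 ± 0.011 to 41.4 ± 1.15 CPM (SD, n = 3). Of 35 polymerase II general factor records tested, 19 rose and 4 fell, with a median of 0.28. The TFIID subunit gene taf1 and the TFIIE gene gtf2e1 had log2 fold changes of 1.02 and 1.21, while the TFIIH gene gtf2h4 (ENSDARG00000007136) and taf15 had -1.13 and -0.26. A second gtf2h4 record lies within this one on the same strand. It had 0, 1 and 0 counts in control-MO and 2, 3 and 7 in wbp11-MO, too few to be tested. The znrd1 record also overlaps the longer gtf2h4 record on the same strand. The part of these overlaps in the gtf2h4 and znrd1 values was not tested.

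Of 33 polymerase II elongation factor genes, 26 rose and 2 fell, with a median log2 fold change of 0.37. The cyclin gene ccnt2a of the P-TEFb kinase rose from 70.8 ± 3.83 to 137 ± 3.47 CPM, and the gene of its inhibitor hexim1 fell from 77.6 ± 4.97 to 51.3 ± 1.96 CPM (SD, n = 3). Of the FACT histone chaperone genes, supt16h had a log2 fold change of 0.64 and ssrp1b, at 20.4 ± 0.58 CPM in control-MO and 10.6 ± 0.83 CPM in wbp11-MO, one of -0.94. The paralog ssrp1a, chosen after its values were seen, was more abundant, at 60.5 ± 2.20 and 97.6 ± 3.28 CPM (SD, n = 3), with a log2 fold change of 0.69. Of 17 polymerase III factor records tested, 11 rose and 1 fell, with a median of 0.53. The small nuclear RNA activating complex gene snapc4 rose from 13.2 ± 2.26 to 80.9 ± 2.70 CPM (SD, n = 3), which is 2.60 ± 0.09 on the log2 scale (SE, edgeR fit, adjusted p = 4.9e-21). The La protein gene ssb, whose product binds new polymerase III transcripts, had a log2 fold change of 1.28, and snapc5 one of -0.44.

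Against the same background, of 10 polymerase assembly factor genes 6 rose and 0 fell, among them the chaperone ATPase gene ruvbl1 and the GTPase gene gpn2 at log2 fold changes of 1.23 and 1.16. Of 15 genes of Integrator, a complex that cleaves nascent polymerase II transcripts, 11 rose and 1 fell. The genes ints1 and ints12 had log2 fold changes of 1.06 and 0.97, and ints10 had -0.33, a call lost without control-MO replicate 3 (edgeR fit, adjusted p = 0.054, range 0.0029 to 0.054 over the alternatives). The largest fitted changes among the partner genes named, snapc4 and taf1b, were larger than those of all 57 members except polr3g.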

How the data were processed

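Poly(A)-selected RNA of 3 control-MO and 3 wbp11-MO pools was sequenced by a company, per the labels' protocols. FastQC 0.12.1, HTSeq 2.0.5 and the build GRCz11 are listed, per the submitters' processing notes. The deposited counts are raw whole-number reads per gene, per the file headers. The deposited FPKM values equal count over table length and column total (largest relative difference 5.15e-15), and were used to compare levels between genes. CPM were computed here from TMM-scaled totals. Counts were tested in R 4.3.3 with edgeR 4.0.16 (filterByExpr, TMM, quasi-likelihood F-test, no block), with Benjamini-Hochberg adjustment over 20012 genes and a threshold of 0.05. Each SE is the absolute log2 fold change over the root of its F value. The alternatives were RLE, upper-quartile and no TMM factors, at least 1 count or CPM 1 in 3 libraries as filters, a replicate block, DESeq2 1.42.0, limma-voom (limma 3.58.1) and leaving out each library. The code was tested on simulated counts. Libraries of a group differed by more than sampling noise (chi-square per degree of freedom 2.59 to 3.93).

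Members and lists were chosen with earlier results of these data known. Values in every library are given, per complex, for the catalytic subunits (in Mediator med1, med12, med13a, med13b and med14), the 3 largest called rises and falls, up to 3 called members against the majority, and the most abundant per length. Each partner list names up to 2 called genes per direction with the smallest adjusted p. Some partner lists hold a symbol with 2 records, counted apart. The values of 1 member are not reported here, while counts and medians include it. No sequences were used.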

Additional observations from a re-analysis of the deposited data

How the results depend on the processing

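Of the 42 called members, 32 kept direction and call in all 14 alternatives, and 0 of the 42 changed direction. The 42 and the 32 include polr3g, whose value is a description with no test. Those 10 that lost the call somewhere are named beside their values. The number of members called higher, 41 as reported, ran from 34 to 37 when a library was left out, was 35 with DESeq2 and 32 at its lowest, and was 40 without polr3g, a count added after seeing the data. With a replicate block it was 39, and 12096 genes were called in all. Same-numbered libraries of the groups did not deviate together (correlations of -0.02, -0.04 and 0.01). The labels do not say whether a number marks a shared clutch or day, and these values cannot settle it. The block ended the calls of med12 and med22 (edgeR fit, adjusted p = 0.055 for each) and no other member call.

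The number of Mediator members called lower, and of all members called lower, ran from 0 to 2 over the omitted libraries, through med30 and med18. The median log2 fold change over the omitted libraries ran from 0.43 to 0.55 for polymerase I, 0.45 to 0.55 for polymerase II, 0.42 to 0.52 for polymerase III, 0.26 to 0.36 for Mediator and 0.42 to 0.47 for all members. With upper-quartile factors it was 0.42 for polymerase III and 0.41 for all members. Without TMM factors it was 0.43 for polymerase II, 0.38 for polymerase III, 0.23 for Mediator and 0.37 for all members, with the median of all genes at -0.07. Sign changes were confined to uncalled genes, with log2 fold changes between -0.02 and 0.16 in the main fit. Without TMM factors med8, med29, med31 and med9 had log2 fold changes of -0.02, -0.02, -0.06 and -0.04, and with upper-quartile factors med31 had -0.02 and med9 0. Over the omitted libraries med8 ran from -0.07 to 0.17, med17 from -0.09 to 0.07, med21 from -0.04 to 0.33, med29 from -0.02 to 0.12, med31 from -0.03 to 0.09, crcp from -0.06 to 0.32 and med9 from -0.02 to 0.10. The SE was at least 0.20 for polr3g, polr2k, med18 and polr3k, against 0.05 for med13a.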
